A study of Mus musculus with 72 samples.

Results

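The muscle acetylcholine receptor and the proteins that place it opposite the nerve ending were represented by 10 genes. These were the receptor subunit genes Chrna1, Chrnb1, Chrnd, Chrne and Chrng, the clustering genes Musk, Rapsn and Dok7, and the acetylcholinesterase genes Ache and Colq. The genes were taken by name, with earlier results of these data known, so counts of calls among them are not those of a blind choice. Each was measured by 1 probe set, and they are 10 of the 20239 named genes on the array. At the neuromuscular junction the motor nerve releases acetylcholine onto a pentameric receptor channel in the fibre membrane. The adult channel holds the epsilon subunit, and the gamma subunit takes its place in fetal and denervated muscle. Agrin from the nerve activates the kinase MuSK through its partner Lrp4, Dok7 is needed for that activation, rapsyn gathers the receptors, and acetylcholinesterase, anchored by its collagen tail ColQ, ends the signal.

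Total RNA of tibialis anterior (TA) and soleus (SOL) was measured on 72 whole-transcript arrays, 1 array per muscle of 36 mice. The knockout mice (mKO, 18 animals) carried floxed Bmal1, which encodes a core transcription factor of the circadian clock, and a Cre transgene driven by the Mlc1f promoter, a myosin light chain promoter of skeletal muscle. The controls (Ctrl, 18 animals) were littermates without Cre, and what Cre alone does cannot be told apart from what the deletion does. All animals were C57BL/6 males of 5 months, housed at 22 °C, and were killed at Zeitgeber time (ZT) 0, 4, 8, 12, 16 or 20, with lights off at ZT12. Each of the 24 groups of muscle, genotype and time held 3 arrays. Values are log2 array signals, and the signals of different genes are not comparable with each other, since each probe set has its own response. Whole muscle was used, so fewer junctions or cells of a type and less RNA per cell cannot be told apart.

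The labels were checked on marker genes. In TA, all 7 slow fibre genes were lower and all 9 fast fibre genes higher than in SOL of the same animals, in both genotypes. The 24-hour amplitude of the targeted gene Arntl (Bmal1) was 0.33 in mKO TA and 1.09 in Ctrl TA, and 0.59 in mKO SOL and 1.34 in Ctrl SOL, and the rhythm differed between genotypes in each muscle (limma, adjusted p = 1.70e-05 in TA and 1.33e-05 in SOL). Its mean over the day did not pass the test (difference -0.072, adjusted p = 0.465 in TA; 0.092, adjusted p = 0.508 in SOL). The positions of its probes relative to the deleted part were not used here, so the mean level checks nothing about the deletion. Liver transcripts stood out on the TA array of Ctrl ZT0 replicate A, where the median of 10 liver genes was 5.18 log2 units higher than on the remaining arrays of that group. The same median was 2.25 higher on the TA array and 1.52 higher on the SOL array of Ctrl ZT4 replicate C. Without either animal every one of the 10 genes kept the calls described here. Animal identifiers carried the prefixes BM3 (23 animals), BM2 (6) and a starred BM2 (7), whose meaning the labels do not give. All mKO animals at ZT20 were BM2 and all Ctrl animals at ZT20 were BM3, so at that time prefix and genotype cannot be told apart.

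The first comparison asked how loss of Bmal1 in muscle changed the level of each gene over the day. In TA, 5 of the 10 genes passed the test, with Chrnb1, Musk, Colq and Chrna1 higher and Ache lower in mKO. In SOL, 3 of the 10 passed, with Chrnb1 and Colq higher and Chrna1 lower in mKO. Chrnb1 in TA was 2.07-fold higher in mKO, and the other called differences were between 1.11-fold and 1.62-fold. Among all genes tested, 14.8% were called in TA (6.76% higher, 8.06% lower) and 7.10% in SOL (3.56% higher, 3.54% lower). The median difference over the 10 genes was 0.060 in TA and -0.0062 in SOL, beside 0.020 and 0.00091 over all genes. The call was an adjusted p under 0.05 in limma, adjusted over all 20239 genes, for mKO minus Ctrl averaged over the 6 times.

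**Figure D1:**
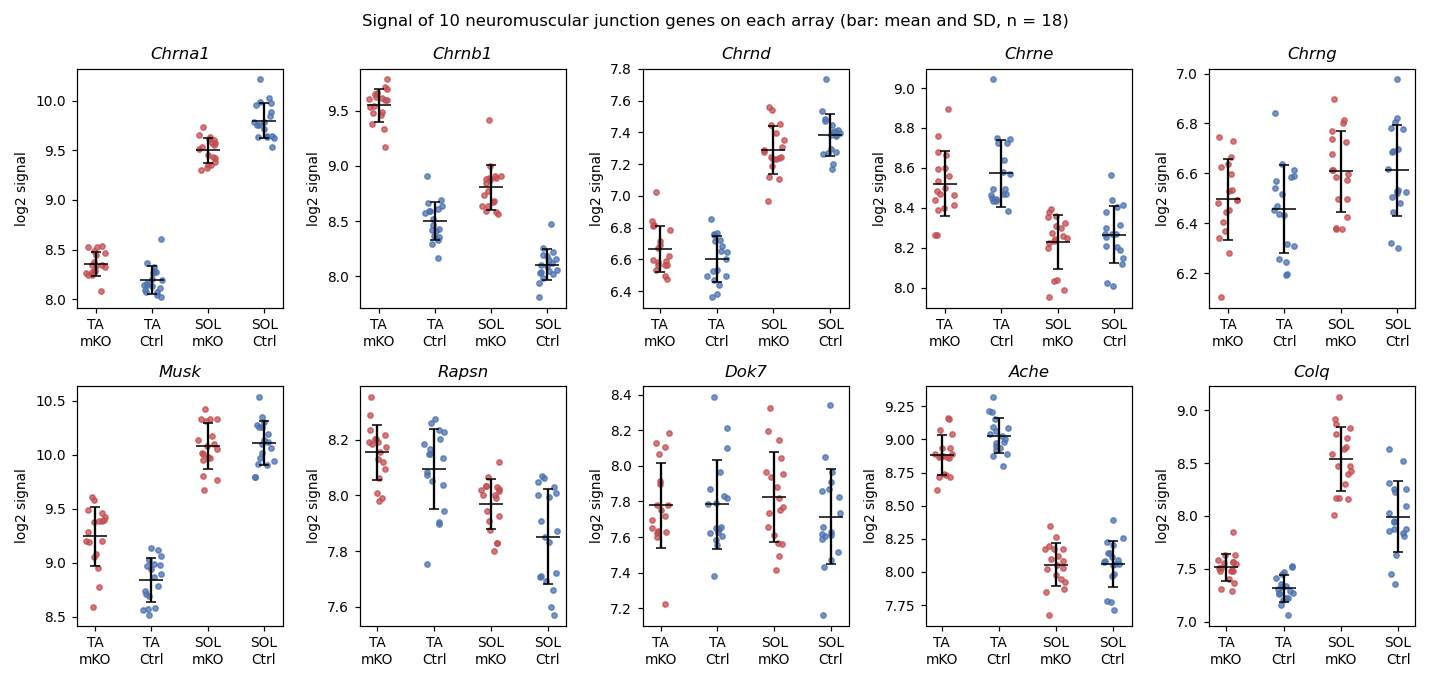
Log2 signal of each of the 10 genes on every array, in TA mKO, TA Ctrl, SOL mKO and SOL Ctrl from left to right, with each axis scaled to its own gene. Each point is 1 array and the bar gives the mean and SD of 18 arrays. Chrnb1 is the gene whose mKO arrays all lie above the Ctrl arrays in both muscles.

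Among the receptor subunits, Chrnb1, which encodes the beta subunit of the muscle channel, changed most. Its signal in TA ran from 9.17 through a median of 9.60 to 9.78 on the mKO arrays, and from 8.17 through 8.49 to 8.91 on the Ctrl arrays. In SOL it ran from 8.57 through 8.81 to 9.41 in mKO and from 7.82 through 8.10 to 8.47 in Ctrl. In each muscle all 18 mKO arrays were above every Ctrl array, a separation that 0.341% of all genes showed in TA and 0.114% in SOL. The difference was 1.05 ± 0.051 (SE) in TA and 0.70 ± 0.057 in SOL (limma, adjusted p = 1.08e-15 and 1.19e-10, 18 animals per genotype). It was positive at 6 of 6 times in both muscles. At single times, with 3 animals against 3, Chrnb1 passed at 6 of 6 times in TA, where the difference lay between 0.88 and 1.15. In SOL it passed at 5 of 6 times, all but ZT16, and lay between 0.51 and 0.92. Genes called higher in mKO at a single time made up, from ZT0 to ZT20, 0.835%, 0.642%, 0.884%, 0.894%, 1.05% and 0.815% of all genes in TA. In SOL these shares were 0.173%, 0.178%, 0.524%, 0.376%, 0.489% and 0.380%. The gain in TA exceeded that in SOL by 0.35 ± 0.081 (adjusted p = 0.0104 on the within-animal difference of the muscles). Among BM3 animals alone the difference was 1.01 in TA and 0.64 in SOL. Among BM2 and starred BM2 animals it was 1.16 and 0.83, and rested on ZT8 and ZT12, their only times with both genotypes.

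Chrna1 encodes the alpha subunit, which carries most of each acetylcholine binding site. In TA its signal ran from 8.08 through 8.34 to 8.54 in mKO and from 8.02 through 8.15 to 8.60 in Ctrl. In SOL it ran from 9.31 through 9.52 to 9.74 in mKO and from 9.53 through 9.77 to 10.21 in Ctrl. The ranges overlapped in both muscles, although in SOL 9 of the 18 mKO arrays lay below the lowest Ctrl array. The difference was 0.16 ± 0.042 in TA (limma, adjusted p = 0.00868) and -0.30 ± 0.046 in SOL (adjusted p = 2.52e-05), so the gene rose slightly in TA and fell in SOL. It was positive at 6 of 6 times in TA and at 0 of 6 in SOL, and the only single time to pass was ZT12 in SOL, where Chrna1 averaged 9.41 in mKO and 9.97 in Ctrl (adjusted p = 0.00716, beside 0.376% of all genes called lower there). The effect in TA minus that in SOL was 0.46 ± 0.052 (adjusted p = 5.79e-07). Only 15 of the 20239 genes (0.0741%) were called in opposite directions in the muscles, against 926 (4.58%) called in the same direction. The TA call for Chrna1 rested on the full set of animals: in the BM3 animals alone its difference was 0.16 with an adjusted p of 0.102.

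The remaining subunits did not pass in either muscle. Chrnd encodes the delta subunit, and its difference was 0.061 in TA and -0.095 in SOL (95% interval -0.038 to 0.16 and -0.18 to -0.0097, adjusted p = 0.449 and 0.225). Chrne, the adult epsilon subunit gene, differed by -0.052 in TA (95% interval -0.16 to 0.057) and by -0.037 in SOL (-0.13 to 0.060). Chrng, the fetal gamma subunit gene, differed by 0.040 in TA (-0.077 to 0.16) and by -0.0031 in SOL (-0.10 to 0.095). No bound of the Chrne and Chrng intervals was farther than 0.16 from 0. No detection calls were used, so the Chrng signal, between 6.10 and 6.98 on all arrays, does not show whether the gene was expressed.

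**Figure D2:**
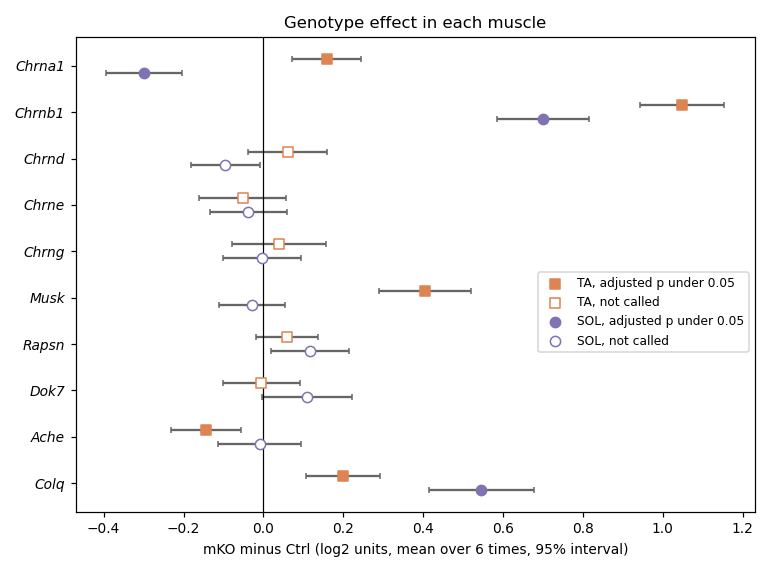
Difference mKO minus Ctrl in log2 units (horizontal axis) for each of the 10 genes (rows), with squares for TA above circles for SOL. Lines are 95% intervals, and filled symbols mark an adjusted p under 0.05. Chrnb1 and Colq lie right of 0 in both muscles, whereas Chrna1 lies on opposite sides of 0.

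Sequence before the annotated start of the subunit genes is shown because the genes behaved differently in the same samples. RefSeq promoter windows of the GRCm38.p6 build were at hand for 7 of the 10 genes, Chrna1, Chrnb1, Chrne, Chrng, Musk, Dok7 and Ache, and Dok7 had a pair of starts. Only bases outside every annotated gene are printed, 5′ to 3′ on the gene's strand, and capitals mark CANNTG, the E-box core bound by bHLH factors such as MyoD and, in its CACGTG form, by CLOCK with BMAL1.
Chrnb1, chr11:69795967-69796067, minus strand: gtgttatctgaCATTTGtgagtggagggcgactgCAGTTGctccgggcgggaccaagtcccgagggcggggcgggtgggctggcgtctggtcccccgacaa
Chrna1, chr2:73580339-73580588, minus strand: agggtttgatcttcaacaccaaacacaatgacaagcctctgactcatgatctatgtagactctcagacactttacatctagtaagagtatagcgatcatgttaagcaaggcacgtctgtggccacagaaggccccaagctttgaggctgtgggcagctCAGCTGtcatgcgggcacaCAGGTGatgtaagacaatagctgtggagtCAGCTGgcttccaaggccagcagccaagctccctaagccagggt
Chrne, chr11:70619214-70619444, minus strand: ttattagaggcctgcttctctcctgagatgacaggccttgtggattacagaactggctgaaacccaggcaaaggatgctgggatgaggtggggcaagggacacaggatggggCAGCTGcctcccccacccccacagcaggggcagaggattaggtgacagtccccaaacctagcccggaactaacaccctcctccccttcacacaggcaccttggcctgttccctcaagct
Chrng, chr1:87205561-87205810, plus strand: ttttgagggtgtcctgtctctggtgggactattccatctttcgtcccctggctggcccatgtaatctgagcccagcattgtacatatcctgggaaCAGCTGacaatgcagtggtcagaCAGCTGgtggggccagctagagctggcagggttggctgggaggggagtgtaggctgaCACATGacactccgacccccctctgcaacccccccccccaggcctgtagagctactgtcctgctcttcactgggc

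These stretches hold 2 E-box cores before Chrnb1, 3 before Chrna1, 1 before Chrne and 3 before Chrng, read on both strands. CANNTG stood in 7 of the 8 full windows of 300 bases, and in 72.3% of all 32851 windows of that length. The narrower CACGTG, which is also a CANNTG, stood in 1 of the 8 windows, that of Ache, and in 7.15% of all windows. CCGGAA, the core of the N-box through which ETS factors act on subunit genes in muscle nuclei under the synapse, stood in the Chrne window and in none of the other 7, beside 14.9% of all windows. These matches describe letters in a window and say nothing of binding.

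The stretch before Chrnb1 is short because 101 bases separate it from Fgf11, the next gene upstream on the same strand, which encodes a fibroblast growth factor homologous factor. The neighbours of all 10 genes were therefore read in the same fits, an addition made after the values had been seen. Fgf11 was higher in mKO by 1.03 ± 0.058 in TA (limma, adjusted p = 2.32e-14) and by 0.83 ± 0.062 in SOL (adjusted p = 1.90e-11). On the other side of Chrnb1, Zbtb4 differed by 0.018 in TA and 0.057 in SOL, and neither passed (adjusted p = 0.759 and 0.441). Slc35g3 and Tmem102, the next genes out, did not pass in either muscle. Fgf11 and Chrnb1 thus rose by similar amounts while the measured genes around the pair stayed within 0.089. In the BM3 animals alone the Fgf11 difference was 1.06 in TA and 0.71 in SOL. Of the 38 distinct neighbours of the 10 genes, 7 were called in TA and 3 in SOL, beside 14.8% and 7.10% of all genes. Which transcript each probe of the Chrnb1 and Fgf11 probe sets reads was not tested.

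**Figure D3:**
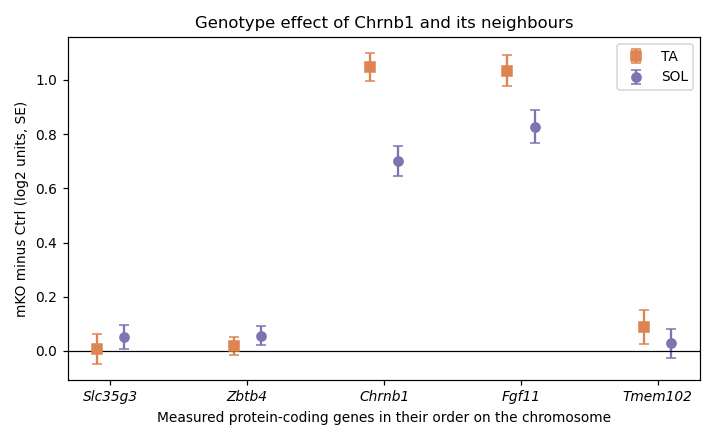
Difference mKO minus Ctrl in log2 units (vertical axis, bars give the SE) for Chrnb1 and the nearest 2 measured protein-coding genes on each side, in chromosome order, with TA squares left of SOL circles. Chrnb1 and Fgf11 stand at 0.70 to 1.05, and Slc35g3, Zbtb4 and Tmem102 near 0.

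Of the clustering genes, Musk alone passed, and in TA. Musk encodes the kinase that agrin activates. Its TA signal ran from 8.59 through 9.33 to 9.61 in mKO and from 8.52 through 8.88 to 9.14 in Ctrl, and 13 of the 18 mKO arrays were above the highest Ctrl array. The difference was 0.41 ± 0.056 (limma, adjusted p = 2.97e-06), a fold of 1.32. In SOL its signal ran from 9.68 through 10.07 to 10.43 in mKO and from 9.80 through 10.11 to 10.53 in Ctrl, and the difference was -0.028 ± 0.040 (adjusted p = 0.831). The effect in TA minus that in SOL was 0.43 ± 0.060 (adjusted p = 1.35e-05).

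At single times the Musk difference in TA lay between 0.059 and 0.70, and whether its 24-hour course differed between mKO and Ctrl did not pass (limma, adjusted p = 0.999). At ZT0 Musk averaged 9.35 ± 0.13 in mKO and 8.65 ± 0.12 in Ctrl (SD, n = 3 each), and at ZT8 9.41 ± 0.15 and 8.73 ± 0.21. These were the times that passed (differences 0.70 and 0.68, limma adjusted p = 0.00298 and 0.00328). At ZT12 the means were 8.77 ± 0.18 in mKO and 8.71 ± 0.15 in Ctrl, a difference of 0.059 with an adjusted p of 0.914. At ZT4, ZT16 and ZT20 the difference was 0.28 to 0.36 and did not pass. All ZT12 animals had the BM2 or starred BM2 prefix. Over the animals with those prefixes the Musk difference in TA was 0.31, beside 0.44 in BM3 animals. Only times with both genotypes inform such a difference. For the BM2 and starred BM2 animals these were ZT12 and ZT8, with 1 animal of each genotype at ZT8. The value of 0.31 thus largely restates ZT12 and is no separate estimate for the prefix. Prefix and time cannot be told apart at ZT12.

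Rapsn and Dok7 did not pass in either muscle. Rapsn, the rapsyn gene, ran from 7.98 to 8.35 in mKO TA and from 7.75 to 8.27 in Ctrl TA, with a difference of 0.058 ± 0.038 (adjusted p = 0.340). In SOL it differed by 0.12 ± 0.048 (adjusted p = 0.177). With array weights the SOL difference was 0.15 and passed, with an adjusted p of 0.0203. Dok7, the MuSK adaptor gene, differed by -0.0048 in TA (95% interval -0.10 to 0.092) and by 0.11 in SOL (-0.0023 to 0.22, adjusted p = 0.317). The Dok7 difference in SOL was positive at 6 of 6 times, and its ranges were 7.41 to 8.33 in mKO and 7.16 to 8.34 in Ctrl.

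Colq, whose product anchors acetylcholinesterase in the basal lamina, was higher in mKO in both muscles. In TA it ran from 7.29 through 7.51 to 7.85 in mKO and from 7.06 through 7.30 to 7.52 in Ctrl. In SOL it ran from 8.01 through 8.53 to 9.12 in mKO and from 7.35 through 7.95 to 8.64 in Ctrl. The ranges overlapped, with 8 of the 18 mKO arrays in TA and 7 in SOL above every Ctrl array. The difference was 0.20 ± 0.045 in TA (limma, adjusted p = 0.00224) and 0.55 ± 0.064 in SOL (adjusted p = 2.54e-07), and it was positive at 6 of 6 times in each. In contrast to Chrnb1, Colq gained more in SOL: the effect in TA minus that in SOL was -0.35 ± 0.070 (adjusted p = 0.00223). In BM3 animals alone this last value was -0.27 and did not pass (adjusted p = 0.244).

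Ache encodes acetylcholinesterase itself. In TA its signal ran from 8.62 through 8.87 to 9.16 in mKO and from 8.80 through 9.01 to 9.32 in Ctrl, with 5 of the 18 mKO arrays below every Ctrl array. The difference was -0.14 ± 0.043 (limma, adjusted p = 0.0207), and 5 of 6 times had this sign. With the identifier prefix as a term in the fit the difference was -0.13 and no longer passed (adjusted p = 0.0521). In SOL the difference was -0.0092 ± 0.051 (adjusted p = 0.967), and the difference between the muscles did not pass (-0.14, adjusted p = 0.405). With array weights it was -0.18 and passed, with an adjusted p of 0.0439.

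The second comparison set TA against SOL within each animal. Among mKO animals 8 of the 10 genes were called (4 higher and 4 lower in TA), beside 48.2% of all genes (27.8% higher, 20.4% lower). Among Ctrl animals 9 were called (4 higher and 5 lower), beside 42.9% of all genes (22.9% higher, 20.0% lower). Higher in TA were Chrnb1, Chrne, Rapsn and Ache, and lower were Chrna1, Chrnd, Musk and Colq. The median size of the difference over the 10 genes was 0.68 in mKO and 0.54 in Ctrl, beside 0.11 and 0.099 over all genes. The slow and fast fibre markers differed between the muscles in the same arrays, and their part in these differences was not tested.

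Chrna1, Musk and Ache were separated between the muscles in both genotypes. Chrna1 lay between 8.08 and 8.54 in TA and between 9.31 and 9.74 in SOL of mKO animals, and between 8.02 and 8.60 in TA and between 9.53 and 10.21 in SOL of Ctrl animals. TA minus SOL was -1.15 ± 0.037 in mKO and -1.61 ± 0.037 in Ctrl (limma, adjusted p = 9.31e-22 and 2.01e-25). Thus the alpha subunit signal in TA was 2.22-fold lower than in SOL in mKO and 3.04-fold lower in Ctrl. For Musk TA minus SOL was -0.83 in mKO and -1.27 in Ctrl, with all 18 animals of each genotype lower in TA. For Ache it was 0.83 in mKO and 0.97 in Ctrl, and again all 18 animals of each genotype agreed in sign. None of these genes overlapped between the muscles in either genotype. In mKO alone Colq did not overlap (TA up to 7.85, SOL from 8.01), and in Ctrl alone Chrnd did not (TA up to 6.85, SOL from 7.17). The muscles did not overlap for 7.65% of all genes in mKO and 7.50% in Ctrl, and the share in both genotypes was not counted.

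The receptor subunits did not share a direction between the muscles. Chrnd was lower in TA (-0.62 in mKO, -0.78 in Ctrl), like Chrna1. Its TA means, 6.66 in mKO and 6.60 in Ctrl, lay below the lowest array median of 6.67, so the size of its gap is less certain. Chrnb1 was higher in TA (0.74 in mKO, 0.40 in Ctrl), as was Chrne (0.29 in mKO, 0.31 in Ctrl). Chrng was lower in TA by a small amount that passed in Ctrl (-0.16, adjusted p = 0.0149) and missed in mKO (-0.11, adjusted p = 0.0733). The Chrng call in Ctrl was lost in BM3 animals alone (adjusted p = 0.0644) and in BM2 and starred BM2 animals alone (adjusted p = 0.252). In mKO Chrng passed with arrays centred on their medians, with quantile normalization and with the prefix as a term (adjusted p = 0.0486, 0.0271 and 0.0395), and also when any one of mKO ZT0, ZT12 or ZT20 replicate A was left out. Colq was lower in TA in all 18 animals of each genotype (-1.03 in mKO, -0.68 in Ctrl). Rapsn was higher in TA (0.18 in mKO, 0.24 in Ctrl). Dok7 alone had no called difference in either genotype (-0.046 in mKO, 0.069 in Ctrl), although with array weights its Ctrl difference was 0.10 and passed (adjusted p = 0.0251).

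**Figure D4:**
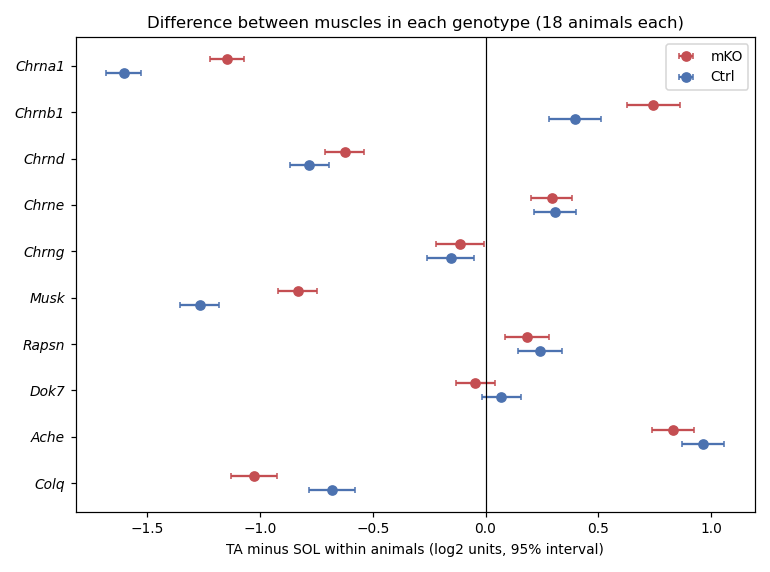
TA minus SOL within animals in log2 units (horizontal axis) for each of the 10 genes (rows), with mKO above Ctrl. Points are means over the 6 times from 18 animals, and lines are 95% intervals. For Chrna1 and Musk the mKO value lies nearer 0 than the Ctrl value, and for Chrnb1 and Colq it lies farther from 0.

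The difference between these contrasts is the test of whether the genotype effect differed between the muscles. It passed for 4 of the 10 genes, Chrna1, Chrnb1, Musk and Colq, beside 2.71% of all genes (1.20% more positive in TA, 1.52% more negative). For Chrna1 and Musk the gap between TA and SOL was smaller in mKO than in Ctrl, by 0.46 and 0.43. For Chrnb1 and Colq it was wider in mKO than in Ctrl, by 0.35 each.

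The third comparison concerned time of day, with a cosine of fixed 24-hour period fitted in each muscle and genotype. In TA, Dok7 was the only one of the 10 genes called, in both mKO and Ctrl, beside 1.76% and 2.70% of all genes. In SOL, Musk, Dok7 and Colq were called in both genotypes, beside 5.68% of all genes in mKO, 6.05% in Ctrl and 3.12% in both. No gene of the 10 had a rhythm that differed between mKO and Ctrl, and none had an unadjusted p under 0.05 for that difference in limma. Among all genes 0.104% differed in TA and 0.0395% in SOL. The largest sizes of such a difference in amplitude among the 10 genes were 0.14 for Musk in TA and 0.11 for Chrng in SOL, and a p that misses the threshold does not show that the rhythms were alike.

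**Figure D5:**
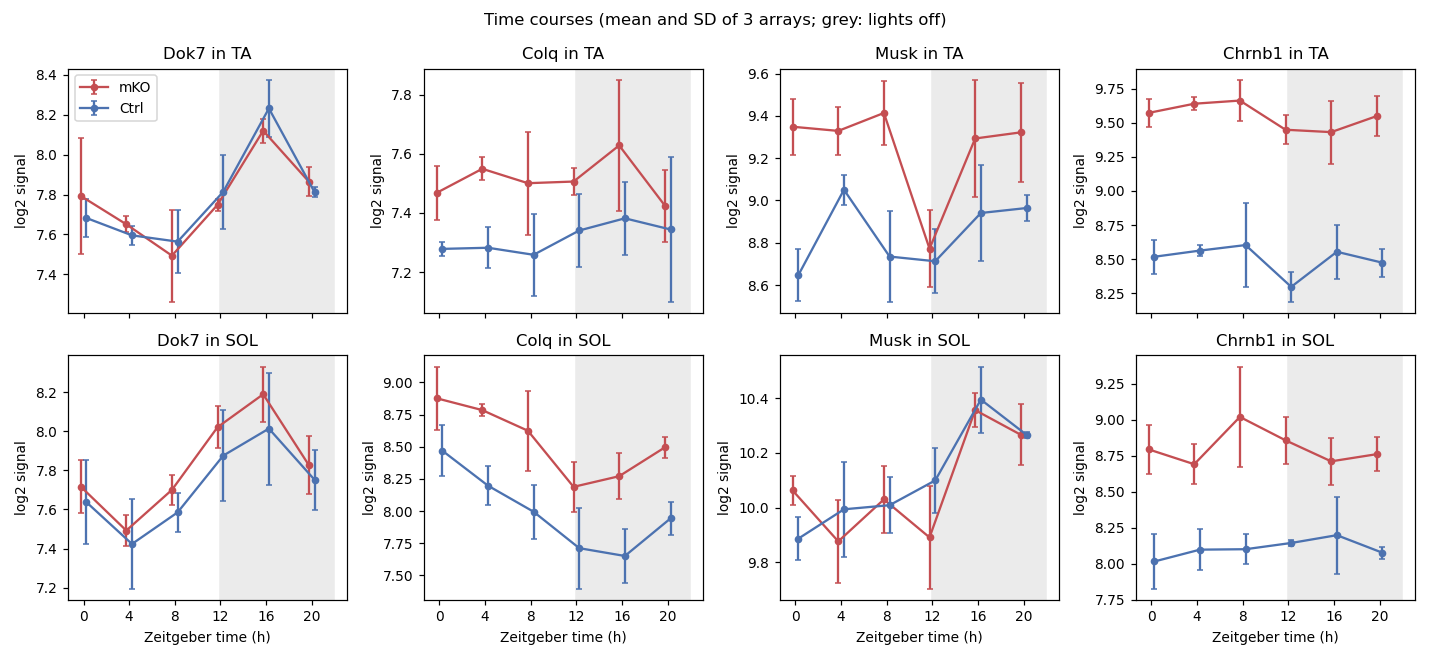
Log2 signal (vertical axes) against Zeitgeber time in hours (horizontal axes) of Dok7, Colq, Musk and Chrnb1 in TA (top row) and SOL (bottom row), for mKO and Ctrl. Points are means and bars are SDs of 3 arrays, and grey marks lights off. Dok7 peaks after lights off in both muscles and genotypes, Colq falls through the light phase in SOL, and Chrnb1 stays higher in mKO at every time.

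Dok7 was rhythmic in both muscles of both genotypes, as were 124 of all genes (0.613%). Its amplitude, from mean to peak, was 0.24 in mKO TA and 0.28 in Ctrl TA (limma, adjusted p = 0.0268 and 0.00476), and 0.31 in mKO SOL and 0.26 in Ctrl SOL (adjusted p = 0.000779 and 0.00353). The fitted peak lay at ZT18.0 in mKO TA and ZT16.5 in Ctrl TA, and at ZT15.4 in mKO SOL and ZT15.7 in Ctrl SOL. The highest of the 6 measured means was at ZT16 in each case: in TA it was 8.12 ± 0.061 in mKO and 8.23 ± 0.14 in Ctrl (SD, n = 3 each). The call in mKO TA was lost when mKO ZT8 replicate C or any of the 3 mKO animals of ZT16 was left out, with an adjusted p of up to 0.0878. The call in Ctrl SOL was lost when any difference among the 6 times was tested in place of the cosine (adjusted p = 0.0557).

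Colq was rhythmic in SOL with a peak early in the light phase. Its amplitude was 0.35 in mKO and 0.38 in Ctrl (limma, adjusted p = 0.00135 and 0.000321), with fitted peaks at ZT2.2 and ZT1.8. At ZT0 it averaged 8.88 ± 0.25 in mKO SOL and 8.47 ± 0.20 in Ctrl SOL, and at ZT16 8.27 ± 0.18 and 7.65 ± 0.21 (SD, n = 3 each). In TA the amplitude was 0.039 in mKO and 0.058 in Ctrl, and neither passed (adjusted p = 0.948 and 0.847). The rhythm of the TA minus SOL difference, tested after the values had been seen, passed for Colq in both genotypes (amplitude 0.38 in mKO and 0.42 in Ctrl, adjusted p = 0.0116 and 0.00231). Such a difference between muscles was called for 0.380% of all genes in mKO and 0.524% in Ctrl.

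Musk was rhythmic in SOL, with an amplitude of 0.21 in each genotype and fitted peaks at ZT18.3 in mKO and ZT16.2 in Ctrl (limma, adjusted p = 0.0174 and 0.0128). At ZT16 it averaged 10.36 ± 0.062 in mKO SOL and 10.39 ± 0.12 in Ctrl SOL, against 9.88 ± 0.15 and 9.99 ± 0.17 at ZT4. The Ctrl call was lost without Ctrl ZT16 replicate A (adjusted p = 0.0581). In TA, Musk had an amplitude of 0.19 in mKO and 0.049 in Ctrl and did not pass (adjusted p = 0.445 and 0.967). Its TA minus SOL rhythm passed in mKO (0.29, adjusted p = 0.0294) and missed in Ctrl (0.20, adjusted p = 0.282). None of the receptor subunits or Rapsn or Ache had a called rhythm, although Chrng in mKO SOL, with an amplitude of 0.16 (adjusted p = 0.110), passed with array weights or with the prefix as a term (adjusted p = 0.0215 and 0.0280).

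The genes most like the called members over the 24 group means, each centred on the mean of its muscle, were listed as a description. These means share arrays and the genotype difference, and no test was made. Chrnb1 was most like Agpat3 (Pearson r = 0.97), Sema4d (0.97) and Ttc7b (0.97), each of them higher in mKO, by 0.74, 0.55 and 0.42 in TA and by 0.45, 0.42 and 0.29 in SOL. Colq was most like Scx (r = 0.91), a transcription factor gene of tendon, and Slc41a3 (0.89) and Tmem171 (0.88). Musk reached 0.78 with Ppme1, Chrna1 0.75 with Meig1 and Ache 0.83 with Phlpp2. Among the 10 genes themselves the highest r was 0.57, between Chrna1 and Chrnd, and the lowest -0.51, between Musk and Ache.

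Genes acting with MuSK and agrin were read beside the members. The counts of these and the following lists stand beside 6.76% of all genes called higher and 8.06% lower in TA, and 3.56% higher and 3.54% lower in SOL. Of 21 measured agrin signalling genes, 2 rose and 5 fell in TA, and 0 rose and 2 fell in SOL. Lrp4, the agrin receptor that partners MuSK, was higher in mKO TA by 0.28 ± 0.033 (limma, adjusted p = 1.71e-07), and the effect in TA minus that in SOL was 0.22 (adjusted p = 0.00139). Sorbs2, a scaffold protein of the cytoskeleton, fell by 1.02 ± 0.057 on the log2 scale in TA (adjusted p = 2.04e-14). Pdzrn3, a ubiquitin ligase that acts on MuSK, fell by 0.21 on the log2 scale in TA and by 0.28 in SOL, and Abl1, a kinase of receptor clustering, fell by 0.35 and by 0.22. Dnaja3 rose slightly in TA (0.077, adjusted p = 0.0450). The median difference of the list was 0.013 in TA and 0.0053 in SOL.

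Of 14 genes of neuregulin and ETS control, 2 rose and 2 fell in TA, and 1 rose in SOL. Prkar1a, a regulatory subunit of protein kinase A, rose in both muscles (0.22 in TA, adjusted p = 3.83e-05; 0.15 in SOL, adjusted p = 0.0111). Erbin rose in TA by 0.14, and Jun (-0.22) and Gabpb2 (-0.14), a subunit of the N-box factor GABP, fell. Of 30 genes of the synaptic cytoskeleton and basal lamina, 6 rose and 4 fell in TA, and 4 rose and 1 fell in SOL. Ank2, an ankyrin that links membrane proteins to the cytoskeleton, rose by 0.54 ± 0.036 in TA and 0.31 ± 0.025 in SOL (adjusted p = 1.82e-12 and 1.07e-10). The synaptic laminin gene Lamb2 rose by 0.20 in TA, and Hspg2, which encodes the perlecan that binds ColQ, by 0.19. Bche, the butyrylcholinesterase gene, fell by 0.54 on the log2 scale in TA (adjusted p = 1.26e-08), and the syntrophin gene Sntb1 by 0.51. Sntb1 also fell by 0.15 in SOL, where Camk2b (0.22) and Macf1 (0.17) rose, and Dtnb fell by 0.13 in TA.

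Of 12 receptor assembly and glycosylation genes, 2 rose and 1 fell in TA, and 1 fell in SOL, beside the 14.8% and 7.10% of all genes. Vamp1, a vesicle protein gene active in nerve terminals, was lower in both muscles (-0.21 in TA, -0.19 in SOL), and Alg14 (0.22) and Ric3 (0.13) rose in TA. Of 11 other nicotinic subunit genes, 3 rose in TA, namely Chrna9 (0.45), Chrna4 (0.44) and Chrna2 (0.20), and Chrna9 alone rose in SOL (0.49, adjusted p = 5.52e-08).

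Of 30 measured genes known to respond to loss of innervation, 4 rose and 6 fell in TA, beside 6.76% and 8.06% of all genes. In SOL 7 rose and 2 fell, beside 3.56% and 3.54%. Cdkn1a, the cell cycle inhibitor p21 gene, rose by 2.85 ± 0.088 in TA and by 2.26 ± 0.078 in SOL (limma, adjusted p = 2.61e-20 and 4.33e-19). Chrna9 is on this list too, Tnfrsf12a rose by 0.55 in TA, and Myod1 by 0.43 in SOL. Hdac4, a histone deacetylase that rises in denervated muscle, fell by 0.24 on the log2 scale in TA and by 0.27 in SOL. Dach2, a repressor of Myog that falls on denervation, fell by 0.27 in SOL, and Hdac9 (-0.23) and Mitf (-0.16) fell in TA. The list's median difference was -0.016 in TA and 0.052 in SOL, beside 0.020 and 0.00091 over all genes. The list holds genes that rise and genes that fall on denervation, so neither the median nor the counts measure such a response. The Chrng difference stood within 0.040 of 0 in both muscles, but its signal does not show whether the gene was expressed. Whether innervation differed was not tested.

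Markers of other cells were read over the whole lists. Of 10 measured Schwann cell and nerve genes, 1 fell in TA (Cdh19, -0.16, adjusted p = 0.0161) and 1 in SOL (Mbp, -0.28, adjusted p = 4.43e-05). Their summed level, in log2, ran from 10.6 to 11.1 in mKO TA and from 10.7 to 11.1 in Ctrl TA, and from 11.4 to 11.8 in mKO SOL and from 11.4 to 11.9 in Ctrl SOL. Of 8 fibroblast and tendon genes, 1 fell in TA (Dcn), and in SOL 1 rose (Scx, 0.28, adjusted p = 5.65e-05) and 1 fell (Fmod). Their summed level ran from 12.9 to 13.3 in mKO TA and from 13.0 to 13.4 in Ctrl TA, and from 13.2 to 13.6 in mKO SOL and from 13.4 to 13.8 in Ctrl SOL. In TA 1 of 7 slow fibre genes and 1 of 9 fast fibre genes rose, and 0 fell. The slow fibre sum ran from 10.6 to 11.2 in mKO TA and from 10.4 to 11.3 in Ctrl TA. In SOL it ran from 15.8 to 16.1 in mKO and from 15.9 to 16.1 in Ctrl. The fast fibre sum ran from 16.6 to 16.8 in mKO TA and from 16.6 to 16.7 in Ctrl TA. In SOL it ran from 15.5 to 15.9 in both genotypes. In SOL 3 of 7 slow fibre genes fell, by 0.11 to 0.17 on the log2 scale. Of 9 fast fibre genes there, Mylpf rose and Actn3 fell. The Actn3 fall was 0.80 on the log2 scale and only just passed (limma, adjusted p = 0.04995). Of 6 satellite cell genes, Cdh15 rose in TA (0.16) and Itga7 in SOL (0.21), and their summed level ran from 10.2 to 10.5 in mKO TA and from 10.2 to 10.4 in Ctrl TA, and from 10.2 to 10.6 in mKO SOL and from 10.1 to 10.5 in Ctrl SOL. Of 8 endothelial genes none was called by limma in TA (1 at an unadjusted p under 0.05) and Kdr rose in SOL (0.22), with summed levels of 12.2 to 12.5 in mKO TA and 12.2 to 12.6 in Ctrl TA, and of 12.4 to 12.8 in mKO SOL and 12.3 to 12.8 in Ctrl SOL. None of 5 macrophage genes was called by limma in either muscle (0 at an unadjusted p under 0.05), with summed levels of 9.41 to 10.5 in mKO TA and 9.61 to 11.1 in Ctrl TA, and of 9.68 to 10.6 in mKO SOL and 9.83 to 10.4 in Ctrl SOL. Of 4 adipocyte genes, Retn fell by 0.19 on the log2 scale in TA. The adipocyte sum ran from 8.19 to 8.52 in mKO TA and from 8.11 to 8.76 in Ctrl TA, and from 8.56 to 10.3 in mKO SOL and from 8.52 to 10.2 in Ctrl SOL, and all 4 genes were called lower in TA than in SOL in both genotypes. None of the 10 liver genes was called between genotypes by limma in either muscle (0 at an unadjusted p under 0.05). The part of these cells and fibre types in the values of the 10 genes was not tested.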

How the data were processed

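RNA of TA and SOL was hybridised to 72 single-colour arrays. The deposited values are log2 signals per probe set from RMA, per the submitters' processing notes; array medians lay between 6.67 and 6.84. Background correction and normalization were done there and not repeated; RMA compresses small differences of dim probe sets. Of 21225 probe sets, 20239 had 1 gene symbol in the platform annotation, 986 had none and were not tested. Genotype and time effects were fitted with limma 3.58.1 (R 4.3.3): each muscle alone with a term per genotype and time, muscle contrasts on the TA minus SOL difference of each animal, and rhythm as a 24 h cosine (moderated F test). P-values were adjusted over all genes by Benjamini-Hochberg, with a threshold of 0.05. Replicates are separate animals per the labels, which give both muscles of an animal 1 identifier; the deviations of both muscles of an animal had a median correlation of 0.046. Precision is limited by how many arrays there are. The age and gender entries of the labels are exchanged and were read by content. Code was tested on simulated data.

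The 10 genes and the lists were chosen with earlier results of these data known. Named from each list were up to 3 genes per direction with the smallest p among those called in a muscle; likeness was Pearson r over group means. Alternatives were another scale, filter, variance prior, array weights, prefix, replicate letter, and leaving out animals. Fits to BM3 animals alone, or to BM2 and starred BM2 animals alone, had a genotype term and a time term. Only times with both genotypes in the set inform the genotype difference there.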

Additional observations from a re-analysis of the deposited data

Results flagged for a closer look

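The genotype effect differed between the muscles for 4 of the 10 genes, by the test of the within-animal difference. TA effect minus SOL effect was 0.46 for Chrna1, 0.43 for Musk, 0.35 for Chrnb1 and -0.35 for Colq (limma, adjusted p = 5.79e-07, 1.35e-05, 0.0104 and 0.00223). Leaving out each of the 36 animals in turn kept all 4 calls, with ranges of 0.43 to 0.48, 0.41 to 0.46, 0.31 to 0.40 and -0.37 to -0.32.

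The daily course differed between TA and SOL for Colq in both genotypes, with an amplitude of the TA minus SOL difference of 0.38 in mKO and 0.42 in Ctrl (limma, adjusted p = 0.0116 and 0.00231). For Musk it differed in mKO, at 0.29 (adjusted p = 0.0294), and this call was lost in 7 of the 36 fits that left out 1 animal. Groups held 3 arrays, so no single array was tested for standing apart.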

How the results depend on the processing

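Over the 10 genes, 1139 of 1167 results of the alternatives stayed called or stayed not called, 20 lost a call and 8 gained one. None that was called changed sign, and the amplitude of a rhythm has no sign. Some differences that were not called did change sign. For Chrnd in TA the difference was 0.061 in all animals and -0.047 in BM2 and starred BM2 animals. For Rapsn in TA it was 0.058 in all animals and -0.011 in BM3 animals. Of the 5 genes called in TA, 3 were called in BM3 animals alone and 1 (Chrnb1) in BM2 and starred BM2 animals alone. In those BM2 animals 0 of the 10 passed for the difference of the effect between the muscles (limma, 5 at an unadjusted p under 0.05), against 4 in all animals; these fits hold fewer animals. Left out 1 animal at a time, the number of the 10 genes with a rhythm in mKO TA ran from 0 to 1, and with a rhythm differing between TA and SOL in mKO from 1 to 2. This last number was 1 with arrays centred on their medians and 1 with the prefix as a term. Rhythm could not be fitted within single prefixes. Replicate letters were not taken to pair mKO with Ctrl animals, which carry different identifiers. Deviations of mKO and Ctrl arrays of 1 letter, time and muscle had a median correlation of 0.15, with 21 of 36 pairs above 0.1. Those of both muscles of 1 animal had a median of 0.046, with 11 of 36 above 0.1. The muscles were paired by identifier and not by correlation. The letters were fitted as a replicate block for the genotype effects and rhythms within each muscle, and no call of the 10 genes changed there (Chrnb1 0.70 in SOL, limma adjusted p = 4.80e-10). Comparisons between the muscles were not read with that block. Over all genes, array weights called 5388 in TA against 3000, and 1201 against 549 for the difference between muscles; BM3 animals alone called 1882 in TA and 579 in SOL, against 3000 and 1436. Testing any difference among the 6 times called 565 rhythmic genes in mKO SOL against 1149; the cause of these shifts was not tested. Dim probe sets limit what can be said of Chrng, and of Chrnd in TA.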

Other observations

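In SOL, 4 of 14 genes of neuregulin and ETS control had a called 24-hour rhythm in mKO and 3 in Ctrl, beside 5.68% and 6.05% of all genes. This list was not alone in that. Of the 30 genes known to respond to loss of innervation, 9 were called in mKO SOL and 11 in Ctrl SOL. In TA 7 of those 30 were called in mKO and 5 in Ctrl, beside 1.76% and 2.70% of all genes. Below, genes of the neuregulin and ETS list are named. Among them Erbb3, a neuregulin receptor gene, was called in both genotypes (amplitude 0.27 in mKO and 0.20 in Ctrl, limma adjusted p = 0.000292 and 0.00619, peaks at ZT13.1 and ZT13.0). Gabpa, the other subunit of the N-box factor, was called there too (0.14 in mKO, 0.13 in Ctrl). In TA, 1 of 30 genes of the synaptic cytoskeleton and basal lamina was called in mKO and 3 in Ctrl, beside 1.76% and 2.70% of all genes. Prima1, which anchors acetylcholinesterase in membranes, had an amplitude of 0.31 in mKO and 0.45 in Ctrl (limma, adjusted p = 0.0214 and 0.000128). Ank2 had one of 0.069 in mKO and 0.21 in Ctrl (adjusted p = 0.657 and 0.000799). A rhythm that differed between mKO and Ctrl in TA was called for 0 of these 30 genes, beside 0.104% of all genes. Neither Ank2 nor Prima1 was thus shown to lose its rhythm in mKO. These genes were picked from the lists after their values were seen.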
